A study of Mus musculus with 16 samples.

Results

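The comparison is between growing mouse oocytes that lost both Hdac1 and Hdac2 and wild-type oocytes, 4 arrays of each among the 16 arrays of the series. Members were chosen by label: the arrays titled as HDAC1/2 conditional knockouts and those titled wild type, read over all probe sets that the platform annotation pairs with exactly 1 gene symbol, 21218 probe sets of 18820 genes. Each array held RNA from 80 pooled oocytes out of the ovaries of mice 12 days old on a C57BL/6 background, amplified before labelling and hybridised to a Mouse 1.1 ST array. The double-knockout mice carried conditional loss-of-function alleles of Hdac1 and of Hdac2 together with a Cre transgene driven by the Zp3 promoter. That promoter works in oocytes once they grow and not in the somatic cells around them. The sources used here do not say whether the wild-type mice carried the transgene or unrecombined conditional alleles. The other 8 arrays, 4 of single Hdac1 and 4 of single Hdac2 knockouts, entered the model only to estimate the spread, apart from a few levels given side by side. The labels call the 4 arrays of a genotype biological replicates, and p-values measure the spread between them.

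HDAC1 and HDAC2 are closely related enzymes that take acetyl groups off histones and other proteins. They form the catalytic core of the Sin3, NuRD and CoREST co-repressor complexes, and removal of acetyl groups at a promoter is a standard step in keeping a gene silent. A growing oocyte stores the messenger RNA and protein that carry the egg through maturation and the first divisions of the embryo, and it then shuts down transcription before it matures.

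Values are the deposited log2 signals, listed for replicates 1 to 4 in that order, and a change is the double-knockout mean minus the wild-type mean on the log2 scale. Arrays of wild type correlated with each other at 0.997 to 0.998 across probe sets, those of the double knockout at 0.995 to 0.997, and arrays of different genotype at 0.975 to 0.98. Hdac1 read 9.26, 9.26, 9.23 and 9.35 in wild type and 7.72, 7.54, 7.61 and 7.75 in the double knockout. The groups lay apart, with a change of -1.62 ± 0.08 (SE) in a limma model (adjusted p = 2.38e-10) and 32.5% of the signal remaining. The same probe set averaged 6.61 ± 0.19 (SD, n = 4) in the single Hdac1 knockout, below the 7.66 ± 0.10 of the double knockout, and 9.64 in the single Hdac2 knockout, and the difference between the knockouts was not tested. Hdac2 read 11.07, 11.02, 11.18 and 11.08 in wild type and 10.85, 10.81, 10.89 and 10.95 in the double knockout, a fall of 0.21 (limma adjusted p = 0.00274) that left 86.2% of the signal. Both had the smallest p that an exact two-sided permutation test of 4 against 4 arrays can give (0.0286). The sources used here do not name the deleted exons, so the small fall at the Hdac2 probe set neither checks nor contradicts that label.

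The labelled cell type carried its defining markers. The summed signal of 16 oocyte markers ran from 49408 to 49759 (median 49562) over the wild-type arrays and from 48856 to 49598 (median 49024) over the double-knockout arrays. Markers of granulosa cells, which surround the oocyte, summed to 1236 to 1325 in wild type and 794 to 874 in the double knockout over 15 genes. Of these 15 genes 11 stood under 5 in wild type, and 4 were higher and 2 lower in the double knockout (limma adjusted p under 0.05). Among the dim ones were Fshr, at 4.10 and 4.13, and Foxl2, at 4.71 and 4.78. The sum moved with Nr5a2, a nuclear receptor gene that read 9.82 in wild type and 8.74 in the double knockout. Over 14 theca and stroma markers the sums were 214 to 234 and 241 to 258, and over 12 markers of blood, immune and endothelial cells 666 to 729 and 382 to 466. In the last of these lists Pecam1, an adhesion molecule, went from 8.42 to 7.04 and Tek, a receptor kinase, from 7.28 to 6.47. The part of other cells in the changes below was not tested, and in RNA of pooled oocytes fewer cells and less RNA per cell cannot be told apart.

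A large share of the measured genes differed between the double-knockout and wild-type arrays. Of all probe sets tested 38.3% passed at a limma adjusted p under 0.05, 18.5% higher and 19.8% lower in the double knockout, and with 1 probe set per gene 17.6% of genes were higher and 20.8% lower. These shares are the background for every count of list members that follows. The size of the changes was lopsided. At 2-fold or more 553 genes rose and 271 fell, at 4-fold or more 161 rose and 5 fell, and at 8-fold or more 71 rose and 0 fell. The fit called 9518 probe sets at an unadjusted p under 0.05. The balance of directions depended on the scaling between arrays, since wild-type arrays had medians of 4.46 to 4.48 and double-knockout arrays of 4.54 to 4.59. With each array centred on its own median the calls became 2895 higher and 6506 lower, and with quantile normalization 3382 and 5025, against 3924 and 4198 as deposited. A direction is therefore given for a group of genes only where its majority kept it under both, which 68 of 106 lists did and 38 did not.

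**Figure D1:**
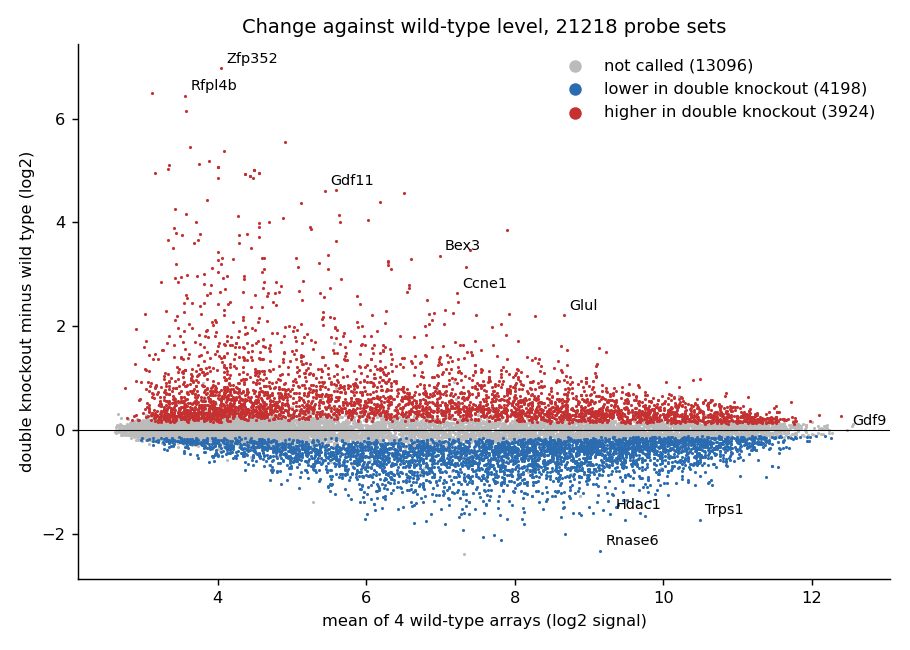
Change in the double knockout (vertical axis, log2) against the mean of the 4 wild-type arrays (horizontal axis, log2 signal) for 21218 probe sets, with limma calls at an adjusted p under 0.05 in red (3924 higher) and blue (4198 lower). Large rises start from dim wild-type levels, while falls lie in the middle and upper part of the scale and stop near -2.

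The level at which a gene stood in wild type went with the direction it took. Called genes that were higher in the double knockout had a median wild-type level of 6.05 and those that were lower a median of 7.90, against 5.14 over all genes. Of 9170 genes under 5 in wild type, where a signal is near the lower end of the scale, 278 rose at least 2-fold, and 57 of these reached 7 or more. Of the 271 genes that fell at least 2-fold, 184 stood at 7 or more in wild type. Cut into 10 classes of brightness over all 16 arrays, 3.82% of the dimmest probe sets were higher and 1.84% lower. In the eighth class 24% were higher and 38% lower, and in the brightest 24% and 26%. Brightness over all arrays includes the arrays compared, so these shares describe where the calls lie and test nothing. They are given again below beside several lists, since the share of probe sets called differed with brightness. The deposited values carry no flag for background or saturation, so a fold from a level under 5 is a ratio of signals near the lower end of the scale and not an exact ratio of RNA.

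**Figure D2:**
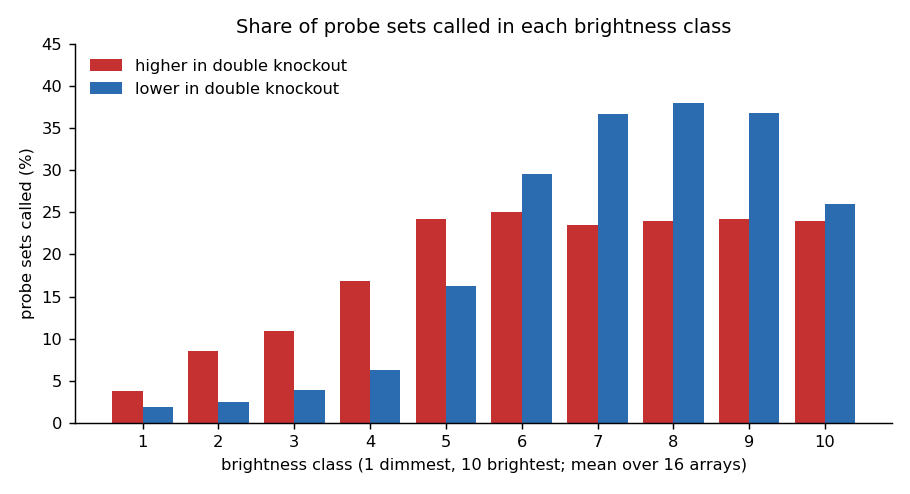
Percent of probe sets called higher (red) or lower (blue) in the double knockout at a limma adjusted p under 0.05, in 10 classes of about 2122 probe sets from the dimmest to the brightest mean over 16 arrays. Lower calls outnumber higher ones from the sixth class up, where they reach 38%.

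The promoters of 5 genes are printed because their genes rose from a dim or low wild-type level and stand for the groups described next: Zfp352 and Rfpl4b for genes that were near the floor of the scale, Kdm5b for chromatin enzymes, and Atf3 and Jun for immediate-early factors. Each window holds the 250 bases before the annotated start in RefSeq's GRCm38.p6 annotation, 5′ to 3′ on the gene's strand. Where a gene had several annotated starts, the most upstream was used. The intervals are chr4:90218570-90218819 (plus strand) for Zfp352, chr10:38821780-38822029 (minus) for Rfpl4b, chr1:134559928-134560177 (plus) for Kdm5b, chr1:191183334-191183583 (minus) for Atf3 and chr4:95052223-95052472 (minus) for Jun. Capitals mark matches on either strand to the letters TGACGTCA (cAMP response element), TGANTCA (AP-1 site), TATAAA (the core promoter box named after these letters), GGGCGG (GC box), CCAAT (the box of that name) or CACGTG (E-box), where adjoining capitals can be overlapping matches.
Zfp352: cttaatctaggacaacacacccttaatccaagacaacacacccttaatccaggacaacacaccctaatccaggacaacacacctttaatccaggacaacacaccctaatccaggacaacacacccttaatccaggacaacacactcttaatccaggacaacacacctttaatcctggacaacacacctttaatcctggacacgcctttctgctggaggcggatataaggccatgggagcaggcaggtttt
Rfpl4b: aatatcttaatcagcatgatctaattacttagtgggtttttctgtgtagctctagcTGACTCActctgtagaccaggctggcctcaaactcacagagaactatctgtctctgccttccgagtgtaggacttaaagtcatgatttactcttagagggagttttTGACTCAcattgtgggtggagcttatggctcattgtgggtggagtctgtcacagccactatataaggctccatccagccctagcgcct
Kdm5b: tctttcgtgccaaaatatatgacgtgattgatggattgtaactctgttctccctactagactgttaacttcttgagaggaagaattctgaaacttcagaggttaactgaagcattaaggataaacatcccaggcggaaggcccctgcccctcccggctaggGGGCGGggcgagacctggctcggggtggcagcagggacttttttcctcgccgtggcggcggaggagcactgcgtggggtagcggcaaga
Atf3: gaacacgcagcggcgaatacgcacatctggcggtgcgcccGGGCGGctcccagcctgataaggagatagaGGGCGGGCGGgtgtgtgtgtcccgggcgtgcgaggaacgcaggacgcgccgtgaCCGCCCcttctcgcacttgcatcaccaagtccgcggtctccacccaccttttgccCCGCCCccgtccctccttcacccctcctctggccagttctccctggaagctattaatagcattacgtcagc
Jun: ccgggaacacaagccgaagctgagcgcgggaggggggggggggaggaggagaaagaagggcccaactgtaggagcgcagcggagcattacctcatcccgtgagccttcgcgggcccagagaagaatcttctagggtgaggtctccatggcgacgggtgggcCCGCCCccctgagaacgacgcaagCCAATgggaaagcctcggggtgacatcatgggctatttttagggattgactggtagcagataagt
The Rfpl4b window holds 2 AP-1 matches, which begin 194 and 88 bases before the start, and 5.89% of all 14738 windows of tested genes hold at least 1. Kdm5b has 1 GC box, 89 bases before its start, and Atf3 has 5, while 46.5% of all windows have one. Jun has a GC box at 89 and a CCAAT box at 65 bases, the latter found in 35.8% of windows. None of these letters occurs in the Zfp352 window, which is built of a short repeated unit. The windows of Zfp352 and Rfpl4b hold 2 CpG dinucleotides each and those of Kdm5b, Jun and Atf3 13, 15 and 24, against a median of 11 over all windows. Windows were at hand for 78.3% of tested genes, under the 80% set for a comparison of gene groups, so promoters of risen and fallen genes were not compared.

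Genes near the floor of the scale in wild type that became bright included several families of the early embryo. Zfp352, a zinc finger gene of the cleaving embryo, read 3.87, 3.91, 4.09 and 4.34 in wild type against 10.61, 11.16, 11.16 and 11.14. Rfpl4b, a gene of the Ret finger protein-like family, read 3.76, 3.59, 3.48 and 3.42 against 9.66, 10.39, 9.84 and 10.09, with a log2 change of 6.44 ± 0.19 (SE; limma adjusted p = 2.46e-13). Both went from the dim end of the scale to levels held by bright oocyte transcripts. The 4 measured genes of the Tdpoz and Spop-like group, Spopfm2, Tdpoz2, Tdpoz3 and Tdpoz8, which are transcribed in the embryo after fertilisation, were all higher, and Usp17l deubiquitinases were higher in 4 of 4 cases. Spopfm2 read 4.38, 4.44, 4.56 and 4.58 in wild type and 9.26, 9.77, 9.42 and 9.55 in the double knockout, a 32.2-fold rise (limma adjusted p = 2.62e-15) with a gap of several log2 units between the groups. Close copies in these families share probe sequence, and 2 other Spopfm2 probe sets gave the same values. The Pramel genes, leucine-rich-repeat genes of germ cells and early embryos, went both ways, with 7 of 16 higher and 3 lower. Pramel19 rose 16.5-fold from 6.02 ± 0.21 (SD, n = 4) to 10.07 ± 0.19 and Pramel7 7.26-fold from 3.47 to 6.33. In the same family Pramel15 fell by 1.07 from a bright 9.60 ± 0.07, and the oocyte gene Oog4 fell by 0.81 from 10.57. Of these 4 the risen genes were dim to moderate in wild type and the fallen ones bright. Of 8 Rhox homeobox genes 0 were called, and of 4 Obox homeobox genes 0 were higher and 2 lower. One run of 5 neighbouring genes on chromosome 12, all provisional models, was higher throughout, with changes of 1.68 (Gm1995) to 6.50 (Gm5662).

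Germ-cell genes of earlier stages were mixed. Meioc, which holds germ cells in meiotic prophase, read 3.66, 3.88, 3.77 and 3.60 in wild type and 7.58, 7.05, 7.57 and 7.36 in the double knockout, a 12.7-fold rise (limma adjusted p = 2.95e-13). Stra8, the retinoic-acid target of meiotic entry, rose 3.19-fold but only to 5.0 ± 0.59 (SD, n = 4). Over 33 genes of meiotic prophase and recombination 8 were higher and 10 lower. Sycp3 of the synaptonemal complex rose 1.58-fold from 9.63 while its partner Sycp1 fell by 0.91 from 8.25. Dmc1, a recombinase, fell by 0.91 and the axis gene Hormad2 by 0.98.

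Several genes of other functions rose 16-fold or more. Zfp711, a zinc finger gene, read 3.07, 3.19, 3.13 and 3.26 in wild type and 8.35, 8.02, 8.02 and 8.09 in the double knockout, 31.1-fold higher (limma adjusted p = 2.03e-16). Its wild-type level lay within the dimmest class of probe sets, which ends at 3.37, so the size of this fold is uncertain. Phf11a, a PHD finger gene, rose 29.1-fold from 4.0 to 8.86, and Gpha2, a glycoprotein hormone subunit, 20.7-fold from 5.12 to 9.49. Gdf11, a secreted ligand of the TGF-beta family, read 5.18, 5.25, 5.72 and 5.60 against 10.13, 9.90, 10.22 and 9.95 and rose 24.5-fold (limma adjusted p = 1.81e-11). It ended among the brightest 10% of probe sets. Foxa3, a forkhead factor of endoderm, rose 16.9-fold to 8.96, Ddit4l, an inhibitor of mTOR signalling, 16.1-fold to 9.65, and the orphan receptor Gpr50 16-fold to 8.69. Guca1a, a guanylate cyclase activator of photoreceptors, rose 16-fold to 7.71. In each of these genes the 4 double-knockout arrays lay above the 4 wild-type arrays.

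Some large rises ended among the brightest transcripts of the oocyte. Bex3, a brain-expressed X-linked gene, read 7.01, 7.09, 6.83 and 7.02 in wild type and 10.29, 10.34, 10.46 and 10.29 in the double knockout, 10.3-fold higher (limma adjusted p = 6.01e-11). Glul, glutamine synthetase, rose 4.64-fold from 8.66 ± 0.10 to 10.88 ± 0.04 (SD, n = 4). Tpm4, a tropomyosin of the actin cytoskeleton, rose 4.6-fold to 10.47, Marcksl1, an actin-binding substrate of protein kinase C, 4.69-fold to 10.16 and Ing2, a reader of methylated histone H3, 3.05-fold to 10.23. A second, dim Marcksl1 probe set changed by 0.10 and was not called. Slc2a1, the glucose transporter GLUT1, rose 2.93-fold to 10.26 and Gstp1, a glutathione transferase, 2.43-fold to 10.39.

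**Figure D3:**
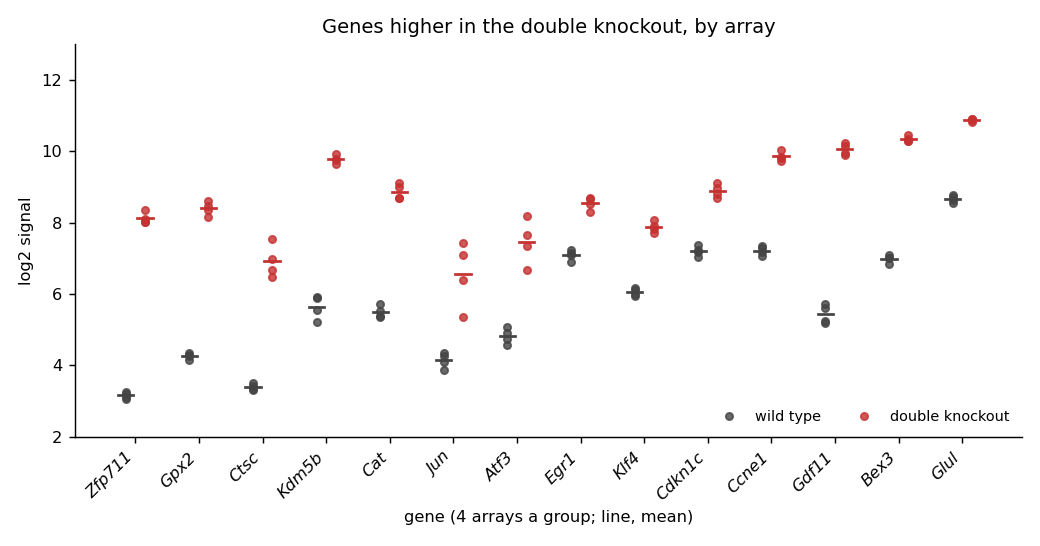
Log2 signal on each of 4 wild-type (grey) and 4 double-knockout (red) arrays for 14 genes that were higher in the double knockout, with a line at each mean. In each gene the 4 double-knockout points lie above the 4 wild-type points, and the double-knockout arrays of Jun (5.35 to 7.44) and Atf3 (6.68 to 8.19) are spread widest.

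Immediate-early genes, which cells switch on within minutes of a growth or stress signal, had the highest share of risen members among the lists of 20 or more measured genes. Of 40 measured, 27 were higher, 2 lower and 11 did not pass, with a median change of 0.56 against -0.02 over all genes. With arrays centred the counts were 24 and 3. Jun, a partner in the AP-1 factor, read 4.27, 3.87, 4.09 and 4.34 in wild type and 7.09, 5.35, 7.44 and 6.38 in the double knockout, a log2 change of 2.42 ± 0.30 (SE; limma adjusted p = 7.12e-06), or 5.36-fold. Its double-knockout arrays spanned over 2 log2 units, and the lowest still lay above wild type. Atf3, a stress-induced bZIP factor, rose 6.29-fold from 4.82 ± 0.22 (SD, n = 4) to 7.47 ± 0.63. Egr1, a zinc finger factor of the growth response, read 7.15, 7.24, 6.89 and 7.10 against 8.66, 8.52, 8.70 and 8.29, and rose 2.73-fold with little spread (limma adjusted p = 2.02e-09). Klf4 rose 3.52-fold to 7.87, the MAP kinase phosphatase Dusp4 3.16-fold to 5.75, the anti-proliferative gene Btg2 3.11-fold to 8.90 and Fos, another AP-1 partner, 2.33-fold to 5.32. The 2 exceptions were Gadd45a, a DNA damage response gene, which fell by 0.60, and Egr2, which fell by 0.43. The call of Egr2 was lost without wild-type replicate 2 (-0.29; limma adjusted p = 0.115) and without double-knockout replicates 1, 2 or 4 (limma adjusted p = 0.0563, 0.0888 and 0.0663).

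Basic helix-loop-helix factors, which include many regulators of cell fate, were higher in 24 of 70 cases and lower in 6 (22 and 9 with arrays centred). Neurod1, a neuronal and endocrine factor, rose 7.21-fold from 3.24 to 6.09. Id2, which blocks other members by pairing with them, rose 2.87-fold from 6.23 ± 0.30 (SD, n = 4) to 7.75 ± 0.18. Srebf2, the activator of sterol synthesis, rose 2.34-fold. The clock-related repressors went the other way. Bhlhe40 read 8.36, 8.42, 8.14 and 8.32 in wild type and 7.14, 7.15, 7.05 and 7.23 in the double knockout and fell by 1.17 (limma adjusted p = 2.02e-09), and Bhlhe41 fell by 1.37. Tcf4, a widely expressed partner factor, fell by 1.37 too.

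Among 25 Klf and Sp factors 10 were higher and 4 lower, which became 9 and 8 with arrays centred. Klf3, a repressor, rose 13.2-fold from 4.55 to 8.27 at its brighter probe set and changed by 0.13, not called, at a dim one. Klf17, bright in the oocyte, read 10.83, 10.88, 10.91 and 10.81 in wild type and 10.16, 10.18, 10.15 and 10.18 in the double knockout and fell by 0.69 (limma adjusted p = 8.78e-09). Patterning homeobox genes outside the Hox clusters numbered 24 higher and 11 lower of 93 (16 and 15 with arrays centred). En2, a hindbrain factor, rose 9.68-fold to 7.28, Hdx 6.08-fold to 7.11, while Isl1 fell by 1.38. Of 36 Hox cluster genes 7 were higher and 2 lower (7 and 4 with arrays centred), with Hoxd8 the furthest at 3.93-fold. The share of risen genes, 19.4%, was close to that of all genes. Their median wild-type level was 3.98, in the brightness class where 10.9% of all probe sets were higher.

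Inhibitors of the cell-cycle kinases rose, and so did a cyclin they oppose. Of 8 cyclin-dependent kinase inhibitors 7 were higher and 0 lower under each scaling. Cdkn1c, which encodes p57, read 7.17, 7.24, 7.04 and 7.36 in wild type and 9.12, 8.69, 8.97 and 8.79 in the double knockout. Cdkn3 went from 6.33 to 7.79 and Cdkn1a, which encodes p21, from 4.57 to 5.92. Cdkn1b, which encodes p27 and is bright in the oocyte, rose 1.32-fold from 10.09 ± 0.11 (SD, n = 4) to 10.49 ± 0.12 (limma adjusted p = 8.97e-05). Ccne1, cyclin E1, the activator of CDK2 that these inhibitors oppose, read 7.07, 7.28, 7.35 and 7.17 against 10.04, 9.82, 9.83 and 9.73 and rose 6.23-fold (limma adjusted p = 9.87e-11). Ccng2, a cyclin of quiescent cells, rose 2.2-fold. Cyclins and their kinases as a whole numbered 16 higher and 11 lower of 47, a majority that turned when arrays were centred (12 and 13).

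Growth factor and receptor genes of the FGF, EGF, PDGF, VEGF and Eph families had more higher than lower members, and so did keratins. The lists of adhesion and junction genes did not lean upward under each scaling. Of 100 genes of the FGF, EGF, PDGF, VEGF and Eph families 32 were higher and 13 lower (27 and 23 with arrays centred). Fgf18 rose 8.99-fold from 6.30 to 9.47, the VEGF receptor Flt1 5.69-fold to 7.65, the receptor kinase Erbb2 5.54-fold to 6.63 and Ret, the GDNF receptor kinase, 4.7-fold to 6.00. Gab1, an adaptor downstream of such receptors, read 5.46, 5.27, 5.52 and 5.70 in wild type and 8.72, 8.48, 8.54 and 8.64 in the double knockout, 8.61-fold higher (limma adjusted p = 3.75e-12). Epha4, an ephrin receptor, fell by 1.38. Keratins, the filament proteins of epithelia, were higher in 15 of 51 cases and lower in 4 (9 and 8 with arrays centred). Krt13 rose 8.02-fold to 6.82 and Krt8 2.33-fold from 7.84 to 9.06, while Krt84 fell by 1.54 from 9.19. Dsp, the desmosomal plaque protein, rose 8.87-fold to 8.23 at the probe set used and changed by 0.06, not called, at a dimmer one. Dsc2, a desmosomal cadherin, fell by 1.81 from 7.06. The list of 112 integrin, cadherin and desmosomal genes held 18 higher and 14 lower, which turned to 12 and 27 with arrays centred, and of 52 claudin, tight-junction and connexin genes 12 were higher and 13 lower.

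In G-protein signalling both Gpr3 and Pde3a fell, which act in opposite directions on the cyclic AMP that holds the oocyte in meiosis. Of 100 genes of G-protein subunits, their regulators and cyclic nucleotide handling 18 were higher and 35 lower (35%). Their median wild-type level was 5.88, in the brightness class where 25% of all probe sets were higher and 29.6% lower. Of 67 orphan receptors named Gpr 6 were higher and 20 lower (29.9%). Those had a median wild-type level of 4.16, in the class where 16.9% were higher and 6.32% lower. Pde3a, the phosphodiesterase that breaks down cyclic AMP in the oocyte, read 10.18, 10.21, 10.25 and 10.17 in wild type and 9.50, 9.47, 9.40 and 9.51 in the double knockout and fell by 0.73 (limma adjusted p = 1.44e-08). Gpr3, the receptor that keeps cyclic AMP high, fell by 0.69 from 8.03 ± 0.07 (SD, n = 4). Akap9, a kinase anchor, fell by 1.12, and Gnat2, a cone transducin, by 1.11. Among dim members Rgs16, which shortens G-protein signals, rose 7.63-fold to 7.0 and Gng8 6.8-fold to 7.62.

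Lysosomal and lipid genes leaned upward. Of 59 genes of the V-ATPase proton pump and the lysosomal hydrolases 22 were higher and 6 lower (16 and 9 with arrays centred). Ctsl, the protease cathepsin L, read 6.94, 6.61, 7.02 and 6.99 in wild type and 9.06, 8.76, 9.15 and 9.01 in the double knockout, 4.3-fold higher (limma adjusted p = 3.61e-10). Ctsc, cathepsin C, rose 11.4-fold to 6.91 and the pump's accessory subunit Atp6ap2 3.26-fold to 9.17. The acid ceramidase gene Asah1 fell by 1.62 and Ctsh by 0.86. Of 49 genes of fatty acid and triglyceride synthesis 19 were higher and 4 lower (15 and 5 with arrays centred). Gpat3, which starts triglyceride synthesis, rose 12.5-fold from 5.60 to 9.24. Plin2, which coats lipid droplets, rose 2.37-fold to 8.22, Fasn, fatty acid synthase, 2.28-fold to 7.37 and Dgat2 1.81-fold, while Acacb fell by 0.79.

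Antioxidant genes were mixed, with catalase and a glutathione peroxidase among the largest rises of their list. Cat, catalase, read 5.38, 5.71, 5.35 and 5.52 in wild type and 9.11, 8.68, 8.99 and 8.68 in the double knockout, 10.4-fold higher (limma adjusted p = 2.86e-10). Gpx2, a glutathione peroxidase of the gut, rose 17.5-fold from 4.27 to 8.40. Slc7a11, the cystine carrier that feeds glutathione synthesis, fell by 0.97 from 10.64 ± 0.08 (SD, n = 4) to 9.67 ± 0.24. The list of 49 glutathione, thioredoxin and antioxidant genes had 14 higher and 10 lower, a majority that turned with arrays centred (11 and 13).

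Ribosome and respiratory chain genes shifted upward by small amounts. Of 68 cytosolic ribosomal protein genes 34 were higher and 2 lower, with a median change of 0.15, and 22 and 5 with arrays centred. Rps19 read 8.98, 8.85, 8.81 and 8.99 in wild type and 9.44, 9.60, 9.40 and 9.60 in the double knockout, 1.52-fold higher (limma adjusted p = 6.66e-05), and Rpl9 rose 1.46-fold. Processed copies of these genes share probe sequence, so their probe sets are not independent. Of 43 complex I genes 18 were higher and 3 lower (12 and 6 with arrays centred), and of 63 genes of complexes II to V 32 were higher and 11 lower (22 and 13). Ndufa12 rose 1.71-fold from 8.73 ± 0.04 (SD, n = 4) to 9.51 ± 0.10, and Uqcr10 of complex III 1.53-fold. Among symbol families with at least 10 genes, Ndufa had 8 of 13 higher and 0 lower and Rpl 22 of 44 higher and 2 lower. Cyct, the cytochrome c of testis, fell by 1.67 from 8.63 to 6.96. Centring the arrays moved the median change of all probe sets from -0.01 to -0.10, a step close in size to these shifts.

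**Figure D4:**
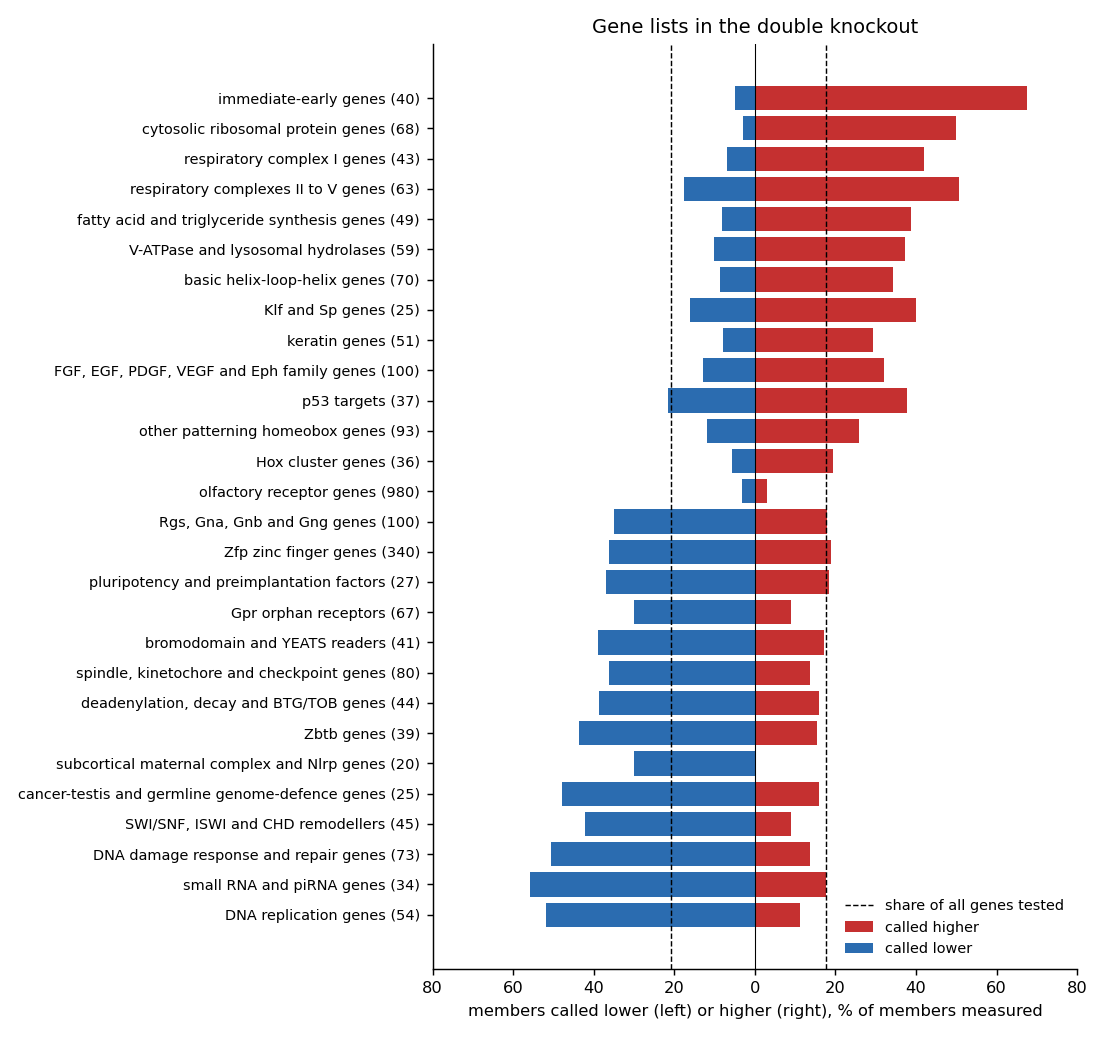
Percent of members called higher (red, right) or lower (blue, left) in the double knockout for 28 lists of 20 or more measured genes. In each of them the majority kept its direction under both other scalings. They come in equal number from both ends of a ranking by percent higher minus percent lower. Lists between the ends are not shown. The number of measured genes stands in brackets, and dashed lines mark the shares of all genes, 17.6% and 20.8%. Immediate-early genes stand at the top with 27 of 40 higher, and DNA replication genes at the bottom with 28 of 54 lower.

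Genes of DNA copying and repair leaned downward. Of 73 DNA damage response and repair genes 37 were lower and 10 higher, a median change of -0.18, and of 54 replication genes 28 were lower and 6 higher, a median of -0.16. With arrays centred the counts were 44 and 6 and 36 and 4. As deposited, 50.7% and 51.9% of the 2 lists were lower. Their median wild-type levels were 8.11 and 9.32, in brightness classes where 38% and 36.8% of all probe sets were lower. Polk, a polymerase that copies past damaged bases, read 7.59, 7.62, 7.60 and 7.54 in wild type and 6.44, 6.52, 6.37 and 6.37 in the double knockout and fell by 1.16 ± 0.05 (SE; limma adjusted p = 4.36e-11). Fancb of the Fanconi anaemia core complex fell by 1.19, the bright repair nuclease gene Dclre1a by 1.01 from 10.62, Pold2, a subunit of polymerase delta, by 1.01 and the topoisomerase Top2b by 1.0. Atm, the kinase that signals double-strand breaks, was among the 10 that were higher and rose 2.04-fold from 6.91 ± 0.10 (SD, n = 4) to 7.94 ± 0.07.

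The centrosomal Cep genes and the Ift genes were lower more often than higher. Of 35 Cep genes, most of them centrosomal proteins, 21 were lower and 2 higher, and of 14 Ift genes of transport in cilia 9 were lower and 1 higher. These shares were 60% and 64.3% lower. The median wild-type levels were 8.02 and 8.15, in the brightness class where 38% of all probe sets were lower. Cfap genes, of cilia and flagella, had 7 of 30 lower and 4 higher, a share lower (23.3%) near that of all genes. Their median wild-type level was 4.41, in the brightness class where 6.32% of all probe sets were lower. Cep44 read 9.50, 9.33, 9.69 and 9.52 in wild type and 8.01, 8.31, 7.84 and 8.48 in the double knockout and fell by 1.35 (limma adjusted p = 5.97e-08). Cep135 fell by 1.19 and Ift80 by 1.20, the latter from 8.66 ± 0.21 (SD, n = 4). Of 80 spindle, kinetochore and checkpoint genes 29 were lower (36.2%) and 11 higher, at a median wild-type level of 9.80, and in the brightness class around that level (8.77 to 9.97) 36.8% of all probe sets were lower. Among 10 Dock genes, which activate small GTPases, 7 were lower and 2 higher. Dock1 read 8.14, 8.01, 8.11 and 8.13 against 6.43, 6.41, 6.23 and 6.46, a fall of 1.71 with tight groups (limma adjusted p = 7.51e-12).

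Genes of small RNA pathways, among them the piRNA pathway that silences transposons in germ cells, were lower in 19 of 34 cases and higher in 6. The share lower was 55.9% at a median wild-type level of 8.74, in the brightness class where 38% of all probe sets were lower. Tdrd12, a piRNA factor, read 10.98, 10.96, 11.20 and 10.97 in wild type and 10.19, 10.22, 9.99 and 10.20 in the double knockout and fell by 0.88 (limma adjusted p = 7.32e-08). Tdrd9, a helicase of the same pathway, fell by 0.69. Outside this list, Dnmt3l, the cofactor of de novo DNA methylation in growing oocytes, fell by 1.24 from 7.35 to 6.11. The genes of the list that rose were Ago1, an Argonaute protein, 5.52-fold from 4.75 to 7.22, and Mov10, an RNA helicase, 4.06-fold from 5.42 to 7.44, with 4 smaller rises.

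Chromatin remodellers and readers had more lower than higher members. Of 45 SWI/SNF, ISWI and CHD remodellers 19 were lower and 4 higher, and of 41 bromodomain and YEATS readers 16 were lower (39%) and 7 higher. The median wild-type levels of these lists were 9.02 and 9.29, in the brightness class where 36.8% of all probe sets were lower and 24.2% higher. Baz2b, a bromodomain protein, fell by 0.82 from 10.07 ± 0.07 (SD, n = 4), Pbrm1 of a SWI/SNF complex by 0.60 and the helicase Chd2 by 1.08. Kmt2a, a histone H3 methyltransferase, rose 3.04-fold from 6.25 to 7.85, and Rsf1 2.22-fold. Of 36 Polycomb genes 10 were higher and 11 lower as deposited, 8 and 16 with arrays centred and 9 and 14 with quantile normalization. Bcor of a Polycomb complex rose 4.02-fold from 5.94 to 7.95 while Scml2 fell by 1.26 from 9.33. Kdm5b, a demethylase of histone H3 lysine 4, read 5.88, 5.55, 5.22 and 5.91 in wild type and 9.92, 9.64, 9.75 and 9.79 in the double knockout, 17.6-fold higher (limma adjusted p = 1.49e-11). Kdm3a, a demethylase of histone H3 lysine 9, rose 2.95-fold, in a list of 31 that held 8 higher and 12 lower members. Zinc finger genes named Zfp were lower in 123 of 340 cases and higher in 64, and Zbtb genes lower in 17 of 39 and higher in 6. The Zfp share, 36.2% lower at a median level of 6.59, is near the 36.7% of all probe sets in the brightness class from 6.43 to 7.65. The Zbtb share was 43.6% lower at a median level of 7.0, in the same class. Zfp40 fell by 1.62 from 6.87.

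Falls among bright transcripts were smaller than the rises. Trps1, a GATA-type repressor, read 10.34, 10.49, 10.70 and 10.44 in wild type and 8.58, 9.19, 8.22 and 9.05 in the double knockout and fell by 1.73 ± 0.21 (SE; limma adjusted p = 4.26e-06). Cdc42bpa, a kinase that acts on actin and myosin, fell by 1.07 from 10.66 ± 0.05 (SD, n = 4), and Ptpn21, a tyrosine phosphatase, by 1.07 from 10.43. Rab27a, a GTPase of secretory vesicles, fell by 1.03, Lmo7 by 1.02 and Aass, of lysine breakdown, by 1.02. For these genes the double-knockout arrays lay below all wild-type arrays, and in the last 5 of them 47.6% to 49.2% of the signal was left. From lower wild-type levels, Usp29, an imprinted deubiquitinase gene, fell by 1.71 from 7.90 and Slc5a8, a monocarboxylate carrier, fell by 1.62 from 7.28. Mrc1, the mannose receptor, fell by 1.71 from 5.98 to 4.27.

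**Figure D5:**
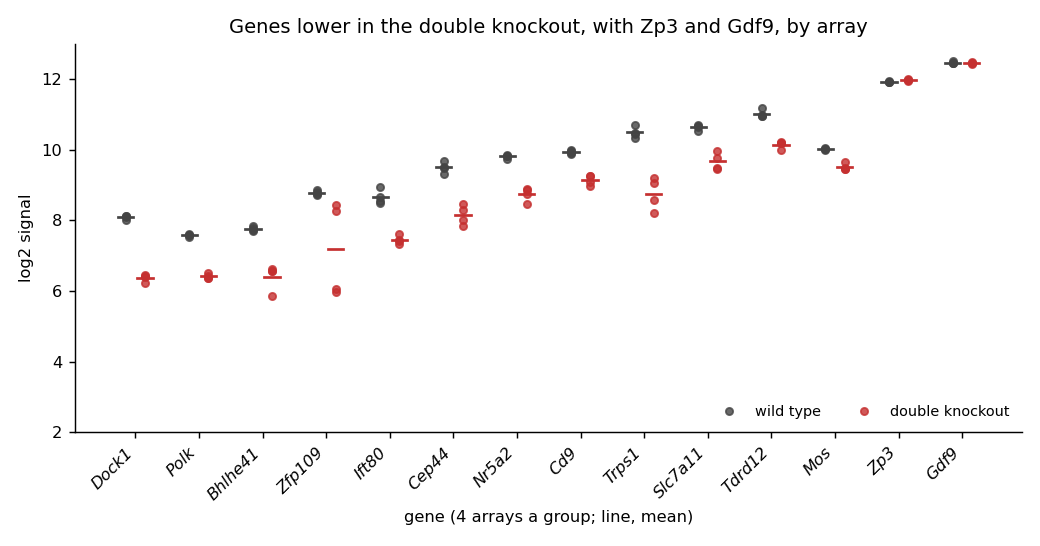
Log2 signal on each of 4 wild-type (grey) and 4 double-knockout (red) arrays for 12 genes that were lower in the double knockout and for Zp3 and Gdf9, which were not called, with a line at each mean. The double-knockout arrays of Zfp109 lie in a pair at 8.26 and 8.45 and a pair at 5.97 and 6.05.

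Several bright genes that define a growing oocyte did not pass the test. Gdf9, the growth factor by which the oocyte steers its follicle, read 12.45, 12.45, 12.51 and 12.45 in wild type and 12.45, 12.45, 12.44 and 12.50 in the double knockout, and the groups overlapped (limma adjusted p = 0.961). Its partner Bmp15 changed by -0.07 and the zona pellucida genes Zp1, Zp2 and Zp3, which build the egg coat, by 0.02, 0.05 and 0.05, none of them called, with standard errors of 0.04 to 0.05. These genes stand near the top of the scale, in the brightest class, where 0 probe sets rose 2-fold or more, and whether their signals are limited there was not tested. Bmp15 passed with arrays centred (-0.16; limma adjusted p = 0.0179) or with quantile normalization (-0.14; limma adjusted p = 0.0373). Of 16 oocyte markers 0 were higher and 5 lower, and the furthest was Figla, the factor that activates the zona genes, at -0.56 from 8.09 ± 0.20 (SD, n = 4). Mos, the kinase of meiotic arrest in the egg, read 10.01, 10.02, 10.02 and 10.04 against 9.67, 9.46, 9.50 and 9.46 and fell by 0.50 (limma adjusted p = 3.83e-06). Cd9, the surface protein needed for fusion with sperm, fell by 0.80 from 9.94 to 9.14. Sohlh1, an early oocyte factor, rose 2.11-fold from 6.10 to 7.18. Of 20 genes of the subcortical maternal complex and the Nlrp family 0 were higher and 6 lower, and of 19 oocyte transcription factors 5 were higher and 6 lower. The shares lower were 31.2% for the markers, 30% for the maternal complex list and 31.6% for the transcription factors. Median wild-type levels of the markers and the maternal complex list were 11.76 and 11.32. In the brightest class 24% of all probe sets were higher and 26% lower. The transcription factors had a median of 8.57, in the class where 24% were higher and 38% lower.

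Factors of the pluripotent embryo did not rise as a group. Of 27 measured 5 were higher and 10 lower (18.5% and 37%). The median wild-type level was 6.06, in the brightness class where 25% of all probe sets were higher and 29.6% lower. Klf4, given above with the immediate-early genes, had the largest rise of this list, 1.82. Esrrb, an orphan nuclear receptor, fell by 1.18 from 6.66, and Nr5a2, named above among the granulosa markers, read 9.84, 9.73, 9.84 and 9.85 in wild type and 8.75, 8.86, 8.47 and 8.89 in the double knockout (-1.07; limma adjusted p = 2.42e-08). Tet1, a dioxygenase that oxidises methylated DNA, fell by 1.17 at its brightest probe set, while 2 dimmer ones changed by 0.18 and 0.30 and were not called.

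Sensory receptor families and clustered protocadherins were dim in both genotypes. Of 980 olfactory receptor genes 3.06% were higher and 3.27% lower, at a median wild-type level of 3.33, and in the dimmest class 3.82% of all probe sets were higher and 1.84% lower. With arrays centred 16.5% of the olfactory receptors were lower. Olfr214, the brightest exception described here, fell by 1.27 from 8.5 ± 0.14 (SD, n = 4) to 7.23 ± 0.38, and Olfr881 rose 4.92-fold from 3.30 to 5.60. Of 205 vomeronasal and taste receptor genes 5 were higher and 3 lower, which became 4 and 44 with arrays centred, and of 22 clustered protocadherins 1 and 1, which became 0 and 4.

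The single knockouts give the levels beside which some of these values stand. They were compared with the same 4 wild-type arrays, so the levels are given side by side with no test between them. Gdf11 averaged 5.44 in wild type, 5.53 without Hdac1, 7.23 without Hdac2 and 10.05 without both. Ccne1 stood at 7.22, 7.43, 8.03 and 9.86 in the same order, and Glul at 8.66, 8.75, 9.42 and 10.88. Zfp711 stood at 3.16, 3.11, 3.45 and 8.12 and Gpx2 at 4.27, 4.35, 4.22 and 8.40. Among falls, Trps1 averaged 10.49, 10.35, 9.75 and 8.76, and Pde3a 10.20, 10.27, 10.12 and 9.47. In Gdf11, Ccne1 and Glul the Hdac2-knockout mean lay 1.79, 0.81 and 0.76 above wild type, and in Trps1 0.74 below it. The Hdac1-knockout means of these genes differed from wild type by at most 0.22. In Zfp711, Gpx2 and Pde3a both single-knockout means differed from wild type by at most 0.29.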

How the data were processed

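RNA of mouse oocytes was measured on 16 arrays, 4 per genotype, and the 4 wild-type and 4 double-knockout arrays were compared. The authors deposited 1 log2 value per probe set and array, without missing values, from 2.07 to 12.89; the base is not stated and was inferred from that range, so every fold rests on it. Per the submitters' processing notes MAS5 was used, and the design text also names GeneSpring, SAM and EASE; the sources used here do not say how the values were scaled. Of 35556 probe sets 21218 had 1 symbol in the platform annotation and were tested, 1881 had several and 12457 none. Where a gene had several, the brightest over the 16 arrays stands for it.

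A mean per genotype was fitted with limma 3.58.1 in R 4.3.3 to all 16 arrays (12 residual degrees of freedom). P-values were two-sided, adjusted by Benjamini-Hochberg over 21218 probe sets, and called under 0.05; the fit was tested on simulated data. The number of arrays limits the precision. The 106 gene lists are described by counts and medians with no set test. The members and lists were chosen with earlier results of these data known. Named genes were up to 3 higher and 3 lower members of a list or family by size of change, the 25 largest rises and falls and the 15 largest at the bright end, all with groups that do not overlap and a higher mean above the median of tested probe sets. Fshr, Foxl2, Gm1995, Stra8, Tdpoz2, Egr1, Egr2, Fos, Cdkn1b, Ret, Dgat2, Gdf9, Bmp15, Zp1, Zp2 and Zp3 were chosen after their values were seen. Alternatives were other scalings, fits, filters and probe sets and each array left out. No genome build is named in the files, so only the promoters carry coordinates.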

Additional observations from a re-analysis of the deposited data

Results flagged for a closer look

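In 19 of 320 groups of 4 arrays checked for the genes named above, 1 array lay far from the other 3, with a gap to its neighbour that exceeds Dixon's critical value as a share of the group's range; chance flags about 1 in 20 such groups. Double-knockout replicate 3 was the low array for Bhlhe41 (5.85), Ccng2 (8.43), Dclre1a (9.25), Tdrd12 (9.99), Dnmt3l (5.41), Tdpoz8 (7.22) and Esrrb (4.97). Double-knockout replicate 1 was low for Zfp352 (10.61), Tdpoz3 (9.0) and Sycp1 (6.53) and high for Ret (6.43), and replicate 2 was low for En2 (6.86). Among wild-type arrays, replicate 1 was apart for Foxl2 (4.50), replicate 2 for Nr5a2 (9.73) and Chd2 (6.49), replicate 3 for Tdrd12 (11.20) and Gdf9 (12.51) and replicate 4 for Krt8 (7.46) and Gng8 (5.0).

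The 14338 probe sets without exactly 1 gene symbol were left out of the comparison. With all probe sets in the limma fit 1413 of them were higher and 962 lower in the double knockout, 16.6% together, and 151 of them rose and 2 fell at least 4-fold. They are not named here.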

How the results depend on the processing

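The counts of 3924 probe sets higher and 4198 lower stayed within 1.5 times of these values with only the 8 arrays compared, quantile normalization, dim probe sets left out, an intensity trend with robust shrinkage, all probe sets of the table or 1 probe set per gene. With each array centred on its median 6506 were lower. With at least 1.4-fold required, the limit in the design text, 1772 were higher and 1700 lower. Leaving out 1 array gave 3579 to 3797 higher and 3814 to 4009 lower. The labels number the replicates alike in each genotype, but same-numbered arrays did not deviate together (correlations of -0.15, -0.10, -0.04 and 0.07), and a fit with the replicate block gave 3797 and 4088. Of 160 genes named 146 were called, and 144 of these kept direction and call under the other scalings, the replicate block, the 8-array fit and each fit without 1 array; a gene under the limit of 5 has no value with dim probe sets left out. The exceptions were Egr2, given above, and Zfp111, whose call was lost with only the 8 arrays (limma adjusted p = 0.0866), without wild-type replicate 3 (0.0525) and without double-knockout replicates 3 or 4 (0.0898 and 0.0892). Of the called genes 3 changed by under 1.4-fold. Psg20 and Pglyrp1 became called without double-knockout replicates 1 or 2, and Pramel27 with the replicate block and without wild-type replicates 2 or 3. The limits are the inferred log base, the unknown scaling, dim probe sets near the lower end of the scale, and copies that share probe sequence.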

Other observations

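Arrays of 1 genotype fell into pairs for a small number of genes, chosen after their values were seen. With at least 1 log2 unit between both arrays of one pair and both of the other, 14 genes split in the double knockout and 10 in wild type. Replicates 1 and 2 were the higher pair for 7 of the 14, and 5 of these lie on chromosome 7 in the RefSeq gene table: Zfp109, Zfp111, Psg20, Pglyrp1 and Ceacam2. That chromosome holds 8.75% of all genes tested. Zfp111 read 9.29, 8.94, 6.94 and 6.96 in the double knockout and 9.17, 9.22, 9.34 and 9.24 in wild type. Pglyrp1, a peptidoglycan recognition protein, read 6.81, 6.74, 4.57 and 5.46 against 6.80, 6.91, 6.63 and 6.75. Psg20 read 8.01, 7.99, 6.45 and 6.91 against 7.87 to 7.96 at its brightest probe set, which was not called. Its other probe set read 7.19, 7.34, 4.14 and 3.67 against 7.0 to 7.37 and was called lower (limma adjusted p = 0.0429).

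In wild type the pairs were replicates 1 and 4 against 2 and 3. Pramel27 read 9.66, 4.93, 5.03 and 9.65 there and 5.13, 5.05, 4.53 and 4.94 in the double knockout, and Dhrs3 and Tceanc2, also on chromosome 4, split the same way. Chromosome 4 holds 5.93% of all genes tested. Stk36 split in both genotypes, with 6.18, 8.29, 8.28 and 5.76 in wild type and 8.31, 5.90, 8.27 and 5.78 in the double knockout. Rnase6, on chromosome 14, read 7.97, 5.61, 8.33 and 5.39 in the double knockout and between 9.07 and 9.26 in wild type. The mean change of such a gene depends on which arrays were drawn, and the cause of the pairs was not tested.

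Probe sets of Hspb1, a small heat shock protein, disagreed. The brightest fell by 1.65 from 9.75 to 8.11, while 2 others rose by 2.80 and 2.74 from 6.58 and 6.57. All 3 were called in the limma fit.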
